A study of Rattus norvegicus with 74 samples.

Results

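The flavin-containing monooxygenases of the rat liver were followed here through the 4 family members Fmo1, Fmo2, Fmo4 and Fmo5. They were found as every probe set of the array that was assigned to exactly 1 gene and whose gene symbol was one of these names. That gave 7 probe sets, 1 for Fmo1 (1387053_at), 3 for Fmo2 (1379467_at, 1377635_at and 1382031_at), 2 for Fmo4 (1379885_at and 1395026_at) and 1 for Fmo5 (1383248_at), of 20826 single-gene probe sets and 31042 probe sets tested. In the rat annotation Fmo4, Fmo1 and Fmo2 are immediate neighbours on chromosome 13, while Fmo5 lies on chromosome 2 between Chd1l and Prkab2.

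Flavin-containing monooxygenases sit in the membrane of the endoplasmic reticulum, bind FAD, take electrons directly from NADPH and add an oxygen atom to soft nucleophiles, mostly nitrogen and sulfur atoms of drugs, pesticides and dietary amines. Unlike the cytochromes P450 they do not need cytochrome P450 reductase, and they are classically regarded as little induced by foreign compounds. Fmo1 is the form with broad substrate use in rat liver and kidney, and it also oxidises hypotaurine to taurine, as shown for the human and mouse enzymes. Fmo5 accepts few of the classical substrates and inserts oxygen next to carbonyl groups (Baeyer-Villiger oxidation), as shown for the human enzyme. Fmo2 is best known as a lung form, and Fmo4 is the least characterised.

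The data are 74 arrays of Wistar Han rat pup liver, from 15 groups of 4 or 5 arrays. PBDE-47, a single tetrabrominated diphenyl ether congener, and DE-71, a commercial mixture of brominated diphenyl ethers, were each given at 0, 0.1, 15 and 50 mg/kg by daily gavage. Dams were dosed on gestation days 6 to 21 and the pups themselves on postnatal days 12 to 21, and the left liver lobe was taken at postnatal day 22. The reference agents had their own 0 mg/kg groups: phenobarbital, which activates the nuclear receptor CAR, at 0, 5 and 45 mg/kg, and PCB126, a dioxin-like biphenyl that activates the aryl hydrocarbon receptor (AhR), at 0, 10, 50 and 250. All groups share the strain, tissue and route. The PCB126 doses are labelled in mg/kg, a unit that could not be checked here. The labels give the dosing days by name for the brominated ethers, and neither the sex nor the litter of any pup. DE-71 at 50 mg/kg had 4 arrays, numbered 2 to 5, and the other groups 5.

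Values are log2 expression, so that a difference of 1 is a doubling. Array medians ran from 4.82 to 5.04. The 6 measured hepatocyte markers of 7 listed (Alb, Ttr, Apoa1, Apoc3, Fgb and Ahsg) lay between 13.26 and 14.94 in all arrays, and none of them was called in any dose comparison. Some arrays were nearly identical in pairs: the root mean square difference of these 4 pairs over the most variable genes was 0.10 to 0.20, while the next closest pair stood at 0.53. Of these, PBDE-47 0 mg/kg replicates 3 and 4, and DE-71 15 mg/kg replicates 1 and 2, were each averaged and counted as 1 sample, which left 72 samples. The other pairs join dose groups, PBDE-47 15 replicate 3 with PBDE-47 50 replicate 3 and DE-71 15 replicate 5 with DE-71 50 replicate 4, and whether each of these arrays stands for an animal of its own was not tested. DE-71 50 mg/kg replicate 2 had the lowest mean correlation with its group of any array, 0.980. PCB126 50 mg/kg replicate 2 alone had Xist, the RNA of the inactive X chromosome, at 9.89 and the Y-linked Eif2s3y at 2.45. The other measured Y-linked gene, Uty, went the other way and read 9.07 there, above every other array. The array's Fmo1 (10.90) and Fmo5 (10.27) values lay inside the range of its group.

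The sequence around the transcription start is shown for Fmo1 and Fmo5, the members whose level moved. Both stretches run 5′ to 3′ on the gene's own strand, from 250 bases before to 50 bases after the RefSeq start in GRCr8. The Fmo1 stretch is chr13:77747617-77747916 on the minus strand, and the Fmo5 stretch is chr2:187910714-187911013 on the plus strand. RefSeq's table also holds a stretch for Fmo2, so 3 of the 4 members matched. Capitals mark each occurrence, on either strand, of the letters GCGTG, the core of the AhR response element, and of the nuclear receptor half-sites, spelled AGGTCA or, as a variant, AGTTCA. These are letter strings that do not overlap each other here.
Fmo1: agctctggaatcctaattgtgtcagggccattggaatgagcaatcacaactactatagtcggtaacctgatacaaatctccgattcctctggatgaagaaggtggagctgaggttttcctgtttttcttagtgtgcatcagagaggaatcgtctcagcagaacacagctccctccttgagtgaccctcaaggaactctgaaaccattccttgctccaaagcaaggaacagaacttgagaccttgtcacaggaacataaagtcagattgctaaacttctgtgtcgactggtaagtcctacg
Fmo5: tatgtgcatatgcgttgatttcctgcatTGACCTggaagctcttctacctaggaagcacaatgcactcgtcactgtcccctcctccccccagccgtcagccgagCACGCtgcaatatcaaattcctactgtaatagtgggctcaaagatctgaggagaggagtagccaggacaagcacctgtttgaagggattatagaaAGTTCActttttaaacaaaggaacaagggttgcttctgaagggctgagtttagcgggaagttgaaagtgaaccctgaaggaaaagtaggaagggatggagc
The Fmo5 stretch holds 1 AGGTCA on the reverse strand, starting 222 bases before the start site, 1 GCGTG on the reverse strand at 146 bases and 1 AGTTCA on the forward strand at 51 bases. The Fmo1 stretch holds none of these letter strings. Among 33469 RefSeq promoter stretches of the same length, 29.7% hold GCGTG, 16.2% AGGTCA and 14.5% AGTTCA on at least 1 strand, so that each is common. A match is a description of letters and not of a bound site.

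Fmo1 fell in the liver of pups given DE-71 at 50 mg/kg. The 5 arrays at 0 mg/kg of DE-71 read 10.71, 11.22, 10.73, 10.94 and 11.31. The 4 arrays at 50 mg/kg read 8.32, 9.11, 10.42 and 9.91. Every treated array lay below every control array, and the treated arrays were spread over a wider range than the controls. How many of all probe sets separate their groups in this way was not counted, here or in the other comparisons. The group means were 9.44 ± 0.92 (SD, n = 4) and 10.98 ± 0.28 (SD, n = 5), a log2 difference of -1.54 (SE 0.28, 95% confidence interval -2.09 to -0.99), which is 2.91-fold lower, with an adjusted p of 0.0001119 in limma. In that comparison 5.68% of all probe sets were called in either direction and 3% fell, and Fmo1 was the single called probe set of the 7. Without replicate 2, the array at 8.32 that also stood furthest from its group, the difference was -1.17 and the adjusted p 0.0117. When the spread was estimated from DE-71 arrays alone, the same difference had an adjusted p of 0.08473, and from the 2 groups alone 0.1235.

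At 15 mg/kg of DE-71, Fmo1 was split. Replicates 1 and 2, which were nearly identical arrays, read 9.12 and 8.98, and replicates 3, 4 and 5 read 10.90, 10.99 and 10.43. The first pair and replicate 5 lay below all controls, while replicates 3 and 4 lay among them. Replicate 5 was nearly identical to replicate 4 at 50 mg/kg (10.42). With replicates 1 and 2 counted once, the mean was 10.34 ± 0.89 (SD, n = 4). The difference of -0.64 (-1.19 to -0.09) did not pass (adjusted p = 0.50 in limma, 0.557% of all probe sets called). At 0.1 mg/kg the arrays read 11.35, 10.09, 11.23, 10.48 and 11.30, with a difference of -0.09 (-0.61 to 0.43), and replicates 2 and 4 lay below every control. No probe set of the array was called at that dose (1929 had an unadjusted p below 0.05). Between 50 and 15 mg/kg the Fmo1 difference was -0.90 (-1.48 to -0.32, adjusted p = 0.24 in limma, 0.0773% of all probe sets called), a call that depended on single samples. It passed without the averaged pair (-1.33, adjusted p = 0.02866 in limma) and without replicate 4 at 50 mg/kg (-1.22, adjusted p = 0.02125 in limma), and it was -0.52 without replicate 2 at 50 mg/kg.

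**Figure D1:**
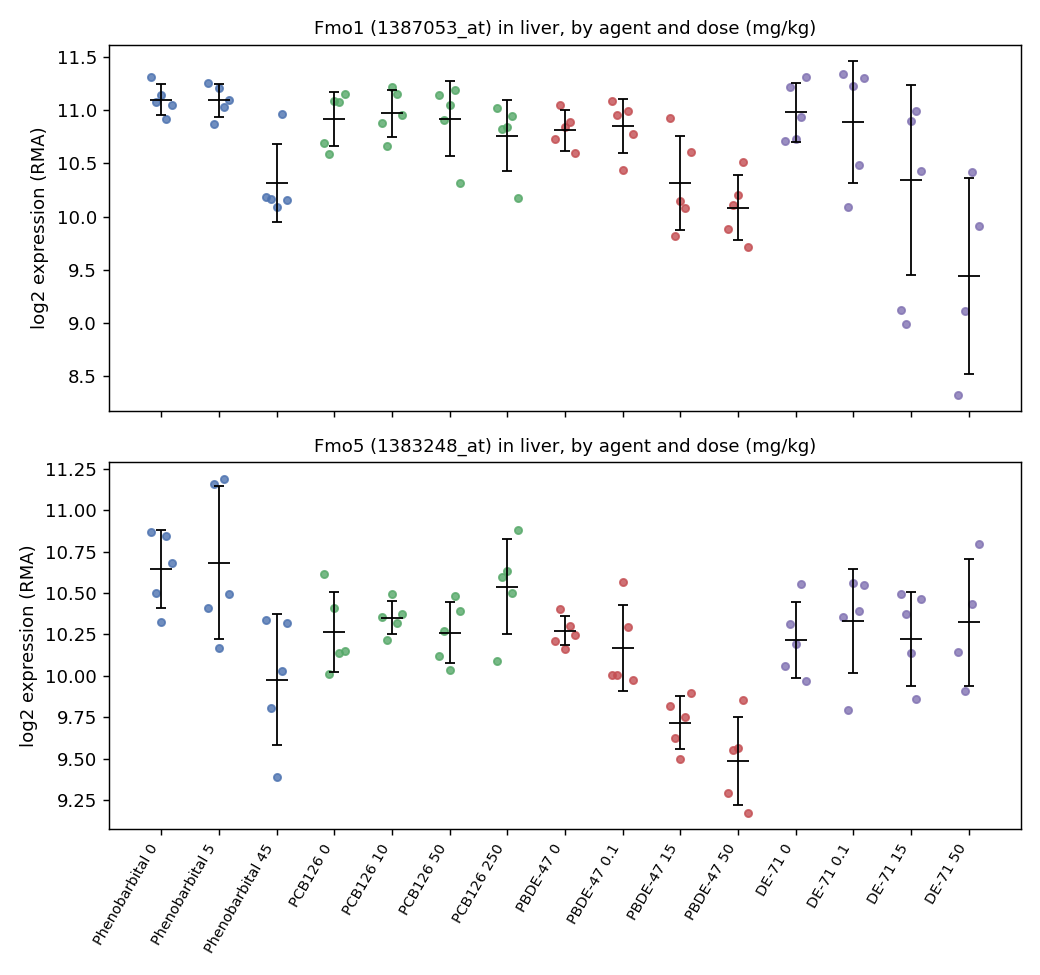
Log2 expression (RMA, vertical axis) of Fmo1 and Fmo5 in the 15 groups, named by agent and dose in mg/kg. Each point is an array, and the black bars are the mean ± SD of the group's samples with the near-identical pairs counted once. The 4 arrays of DE-71 50 mg/kg lie below all 5 of its controls for Fmo1 and on both sides of their mean for Fmo5, and the PBDE-47 50 mg/kg arrays lie below their controls for both.

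Under the single congener PBDE-47 at 50 mg/kg Fmo5 was called as fallen, while Fmo1 moved by about as much (-0.73) and was not called. The Fmo5 arrays at 0 mg/kg read 10.21, 10.40, 10.16, 10.30 and 10.25. At 50 mg/kg they read 9.29, 9.55, 9.57, 9.86 and 9.17. No treated array reached the lowest control. The means were 9.49 ± 0.27 (SD, n = 5) and 10.27 ± 0.09 (SD, n = 4), a log2 difference of -0.79 (SE 0.18, 95% confidence interval -1.15 to -0.42) or 1.72-fold lower, with an adjusted p of 0.006894 in limma. Of all probe sets, 2.02% were called in that comparison and 0.792% fell, and Fmo5 was the 1 called of the 7. The call stood in each of 9 fits that left out 1 sample (-0.88 to -0.71).

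At 15 mg/kg of PBDE-47, Fmo5 read 9.82, 9.63, 9.50, 9.75 and 9.90, again with every array below every control. The share of all probe sets that separate like this was not counted. The difference of -0.56 (-0.92 to -0.19) did not pass the adjustment over all probe sets (adjusted p = 0.22 in limma, 0.441% called). Fitted on these 2 groups alone it passed (adjusted p = 0.03545 in limma). Without the arrays that join dose groups it was -0.50 (adjusted p = 0.4543 in limma). Among those arrays were replicate 3 at 15 mg/kg (9.50) and replicate 3 at 50 mg/kg (9.57), which were nearly identical. At 0.1 mg/kg the difference was -0.10 (-0.47 to 0.26), and no probe set was called (1170 at an unadjusted p below 0.05). The order of the means, 10.27, 10.17, 9.72 and 9.49 from 0 to 50 mg/kg, followed the dose. The step from 15 to 50 mg/kg (-0.23, -0.57 to 0.11) did not pass, and no probe set was called between these doses (936 at an unadjusted p below 0.05).

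Fmo1 under PBDE-47 moved by about as much as Fmo5 but did not pass. It read 10.73, 11.05, 10.85, 10.89 and 10.59 at 0 mg/kg. It read 9.89, 10.11, 10.20, 10.51 and 9.71 at 50 mg/kg. These groups did not overlap either, a separation whose share over all probe sets was not counted. The difference was -0.73 (SE 0.28, -1.28 to -0.18) with an adjusted p of 0.20 in limma, and it passed when fitted on the 2 groups alone (adjusted p = 0.03298 in limma). At 15 mg/kg the arrays read 10.93, 9.82, 10.15, 10.08 and 10.61 and overlapped the controls (-0.49, -1.05 to 0.06). The means at 0, 0.1, 15 and 50 mg/kg were 10.81 ± 0.19 (SD, n = 4), 10.85 ± 0.26 (SD, n = 5), 10.32 ± 0.45 (SD, n = 5) and 10.08 ± 0.31 (SD, n = 5), of which the first pair and the last pair in this order differ by less than their SDs.

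Fmo5 also fell at 45 mg/kg of phenobarbital. Its controls read 10.87, 10.50, 10.32, 10.85 and 10.68. The 45 mg/kg arrays read 10.34, 9.81, 9.39, 10.03 and 10.32. All 5 treated arrays lay below the control mean, and the highest of them overlapped the lowest control. The difference was -0.67 (SE 0.17, 95% confidence interval -1.01 to -0.32), 1.59-fold lower, with an adjusted p of 0.02522 in limma, where 1.39% of all probe sets were called and 0.583% fell. This call was lost in 5 of 10 fits that left out 1 sample (0 mg/kg replicates 1, 4 and 5, 45 mg/kg replicates 2 and 3), with an adjusted p of up to 0.1752 and a difference of -0.52 without replicate 3 at 45 mg/kg. It was also lost with the spread from the phenobarbital arrays alone (adjusted p = 0.1196 in limma) or from the 2 groups alone (0.09959). At 5 mg/kg the arrays read 10.41, 11.16, 10.17, 11.19 and 10.49, spread on both sides of the controls (0.04, -0.31 to 0.38, 0.0644% of all probe sets called). Fmo5 fell from 5 to 45 mg/kg by 0.71 on the log2 scale (adjusted p = 0.03796 in limma, 0.358% of all probe sets called and 0.126% fallen), a call likewise lost in 5 of 10 such fits (45 mg/kg replicates 2, 3 and 4, 5 mg/kg replicates 2 and 4), where the adjusted p reached 0.2818, and in the fits on fewer arrays (0.2122 and 0.2167).

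Fmo1 under phenobarbital was low in 4 of the 5 arrays at 45 mg/kg. They read 10.19, 10.17, 10.09, 10.97 and 10.16, against 11.31, 11.08, 11.15, 10.92 and 11.05 at 0 mg/kg. Replicate 4 alone lay among the controls. The difference was -0.79 (-1.31 to -0.27) and did not pass (adjusted p = 0.14 in limma). It passed when the spread was estimated from the phenobarbital arrays alone (adjusted p = 0.005241 in limma). At 5 mg/kg Fmo1 differed from its control by -0.01 (-0.53 to 0.51), with means of 11.09 ± 0.15 and 11.10 ± 0.14 (SD, n = 5 each). Between 45 and 5 mg/kg the Fmo1 difference was -0.78 (-1.30 to -0.26) and did not pass (adjusted p = 0.35 in limma).

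PCB126 called no member at any dose, in comparisons where 0, 0 and 0.0322% of all probe sets were called at 10, 50 and 250 mg/kg (1024 and 1736 had an unadjusted p below 0.05 at the lower doses). Fmo1 means were 10.92 ± 0.26, 10.97 ± 0.22, 10.92 ± 0.36 and 10.76 ± 0.34 from 0 to 250 mg/kg (SD, n = 5 each), neighbours that differ by less than their SDs. At 250 mg/kg the Fmo1 arrays read 11.02, 10.83, 10.84, 10.95 and 10.17. Only replicate 5 lay below the controls, and the difference was -0.16 (-0.68 to 0.36). Fmo5 read 10.09, 10.60, 10.63, 10.50 and 10.88 at 250 mg/kg and 10.61, 10.01, 10.41, 10.14 and 10.15 at 0 mg/kg. These overlapped, with a difference of 0.27 (-0.07 to 0.62, adjusted p = 0.89 in limma). Between 250 and 50 mg/kg neither was called (0.0258% of all probe sets), at -0.16 for Fmo1 and 0.28 for Fmo5.

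The index genes of each receptor show what the same livers did. The 8 genes listed for CAR and the related receptor PXR, among them the carboxylesterase Ces2c, all rose at phenobarbital 45, at PBDE-47 15 and 50 and at DE-71 15 and 50 mg/kg. In these comparisons 1.39, 0.441, 2.02, 0.557 and 5.68% of all probe sets were called. Ces2c rose by 3.81 at phenobarbital 45, by 3.86 at PBDE-47 50 and by 2.85 at DE-71 50 mg/kg on the log2 scale. At phenobarbital 5 mg/kg, where 0.0644% of all probe sets were called, Cyp2c7 (3.27), Ces2c (1.67), Ugt2b1 (0.96) and Cyp2c6v1 (0.64) rose. Fmo1 changed there by -0.01 and Fmo5 by 0.04. None of the 8 was called under PCB126. Cyp1a1, the P450 that AhR agonists induce, rose by 4.24 at PCB126 250, by 5.78 at DE-71 15, by 6.28 at DE-71 50 and by 2.11 at PBDE-47 50 mg/kg, the last a call lost without the arrays that join dose groups. Beside these, Fmo5 changed by -0.67, -0.79 and 0.10 at phenobarbital 45, PBDE-47 50 and DE-71 50 mg/kg, and by 0.27 at PCB126 250 mg/kg. Fmo1 changed by -0.79, -0.73, -1.54 and -0.16 in the same order, of which the DE-71 value alone was called in the main fit. With the spread from the arrays of the same agent alone, the Fmo1 value at phenobarbital 45 mg/kg was called (adjusted p = 0.005241 in limma). Those at DE-71 50 (adjusted p = 0.08473 in limma) and PBDE-47 50 mg/kg (0.0681) were then not called. The part of either receptor in these values was not tested.

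**Figure D2:**
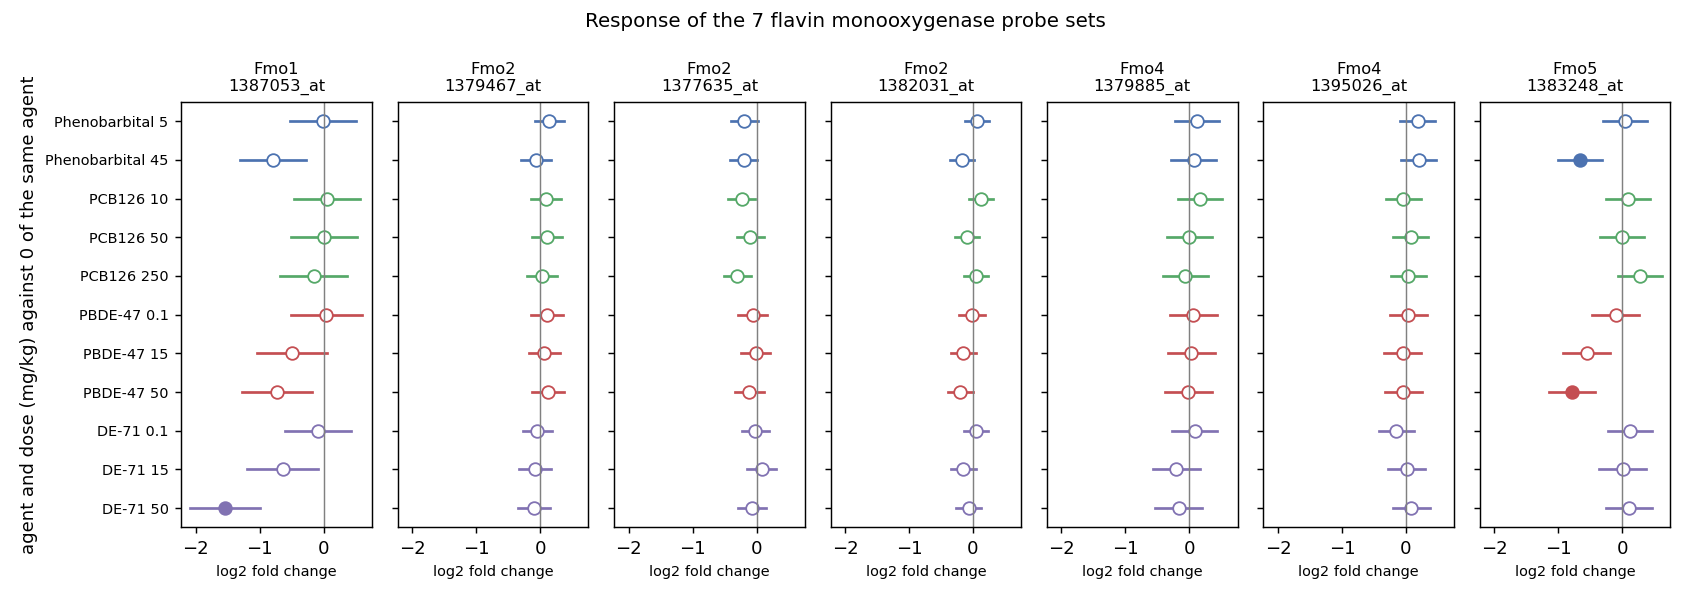
Log2 fold change (horizontal axis) with its 95% confidence interval from limma for each of the 7 probe sets, 1 panel each, in 11 comparisons of a dose (mg/kg) with 0 mg/kg of the same agent. Filled points passed an adjusted p below 0.05: Fmo1 at DE-71 50 (-1.54), and Fmo5 at PBDE-47 50 (-0.79) and phenobarbital 45 (-0.67). The panels of Fmo2 and Fmo4 hold no filled point.

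DE-71 and PBDE-47 were given at the same labelled doses, so their responses could be subtracted. Fmo5 was not called under the mixture at 50 mg/kg, with arrays at 10.15, 9.91, 10.43 and 10.80 against controls at 10.06, 10.31, 10.19, 10.55 and 9.97 (0.10, -0.26 to 0.47), while it fell under the congener. The response to DE-71 minus that to PBDE-47 was 0.89 (SE 0.26, 95% confidence interval 0.37 to 1.40, unadjusted p = 0.001015), with an adjusted p of 0.23 in limma over all probe sets, so the agents' difference did not pass. At 15 mg/kg DE-71 arrays read 10.49, 10.38, 10.14, 9.86 and 10.46, and the difference between the agents was 0.56 (0.05 to 1.08, adjusted p = 0.98 in limma). For Fmo1 the difference was -0.81 at 50 mg/kg (-1.59 to -0.03, adjusted p = 0.52 in limma) and -0.15 at 15 mg/kg (-0.93 to 0.63). At 0.1 mg/kg it was -0.13 for Fmo1 and 0.22 for Fmo5. None of the 7 probe sets was called between the agents, where 0, 0.0129 and 0.0387% of all probe sets were called at 0.1, 15 and 50 mg/kg (1642 had an unadjusted p below 0.05 at the lowest dose). With these intervals a like response of both genes to both agents was not shown either.

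Fmo1 and Fmo5 were also set against each other inside each sample, which leaves out any shift common to both probe sets. The log2 difference Fmo1 minus Fmo5 averaged 0.76 ± 0.38 (SD, n = 5) at 0 mg/kg of DE-71 and -0.88 ± 0.74 (SD, n = 4) at 50 mg/kg. The change of -1.64 had a two-sided exact permutation p of 0.007937, the smallest these group sizes can give, and 0.08731 after adjustment over the 11 dose comparisons. It was -1.33 without DE-71 50 replicate 2 and -1.93 without replicate 4. Like the other tests, this one was chosen with earlier results of these data known. Fmo1 minus Fmo5 holds the same fall of Fmo1 given above (-1.54, beside 0.10 for Fmo5), so its change is no separate support for that fall. In the PBDE-47 groups the same quantity was 0.54 ± 0.14 (SD, n = 4) at 0 mg/kg and 0.60 ± 0.05 (SD, n = 5) at 50 mg/kg, and it changed by 0.06 (exact permutation p = 0.46). At phenobarbital 45 mg/kg it changed by -0.12 (exact permutation p = 0.66) and at PCB126 250 mg/kg by -0.43 (exact permutation p = 0.21). Over the samples of an agent, which share their dose groups, Fmo1 and Fmo5 correlated at r = 0.76 for PBDE-47 (19 samples), 0.55 for phenobarbital (15), 0.12 for DE-71 (18) and -0.39 for PCB126 (20), given as a description.

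**Figure D3:**
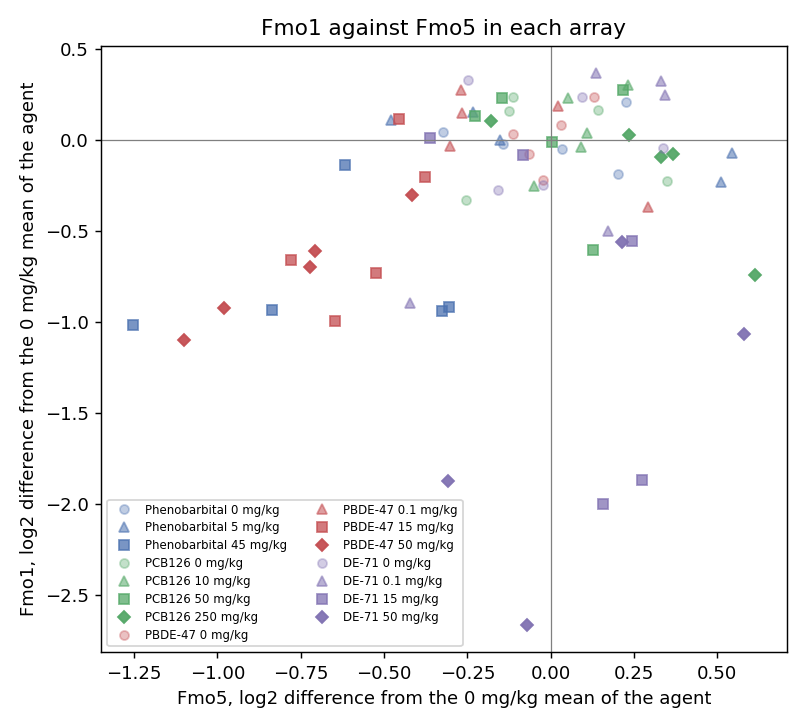
Fmo1 (vertical axis) against Fmo5 (horizontal axis) in each array, both as the log2 difference from the 0 mg/kg mean of the same agent. Colour gives the agent and the marker shape the dose. The PBDE-47 50 mg/kg arrays are low on both axes, while the DE-71 50 mg/kg arrays are low for Fmo1 and spread around 0 for Fmo5.

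Fmo4 was measured by 2 probe sets and called nowhere. On 1379885_at its group means lay between 6.43 ± 0.34 (SD, n = 4) at DE-71 15 and 7.05 ± 0.23 (SD, n = 5) at phenobarbital 5 mg/kg. Its DE-71 means from 0 to 50 mg/kg were 6.64 ± 0.18, 6.72 ± 0.53, 6.43 ± 0.34 and 6.47 ± 0.25 (SD), all within a SD of the next. The differences from control on this probe set ran from -0.20 at DE-71 15 mg/kg to 0.17 at PCB126 10 mg/kg. On 1395026_at the phenobarbital groups read 5.04 ± 0.23, 5.22 ± 0.10 and 5.23 ± 0.05 (SD, n = 5 each) at 0, 5 and 45 mg/kg, and the DE-71 groups 4.15 to 4.39. The agents look normalized separately, so these levels of different agents cannot be told apart from a difference between array sets. The probe sets did not move together over the 72 samples (r = 0.01 after the agent means were removed).

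Fmo2, the lung form, gave low values on all 3 probe sets. The arrays ranged from 3.63 to 4.83 on 1379467_at, from 3.09 to 3.99 on 1377635_at and from 2.92 to 3.69 on 1382031_at, all near or below the array medians, and the table has no detection calls. No comparison called any of them. The difference from control of largest size was 1377635_at at PCB126 250 mg/kg, at -0.30 (-0.51 to -0.09, adjusted p = 0.73 in limma). On that probe set the PCB126 controls lay between 3.30 and 3.94 and the 250 mg/kg arrays between 3.13 and 3.42, so the groups overlapped. The other probe sets of Fmo2 differed there by 0.03 and 0.04. Correlations among the 3 probe sets over the 72 samples ran from -0.05 to 0.04, so they shared no pattern across samples.

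**Figure D4:**
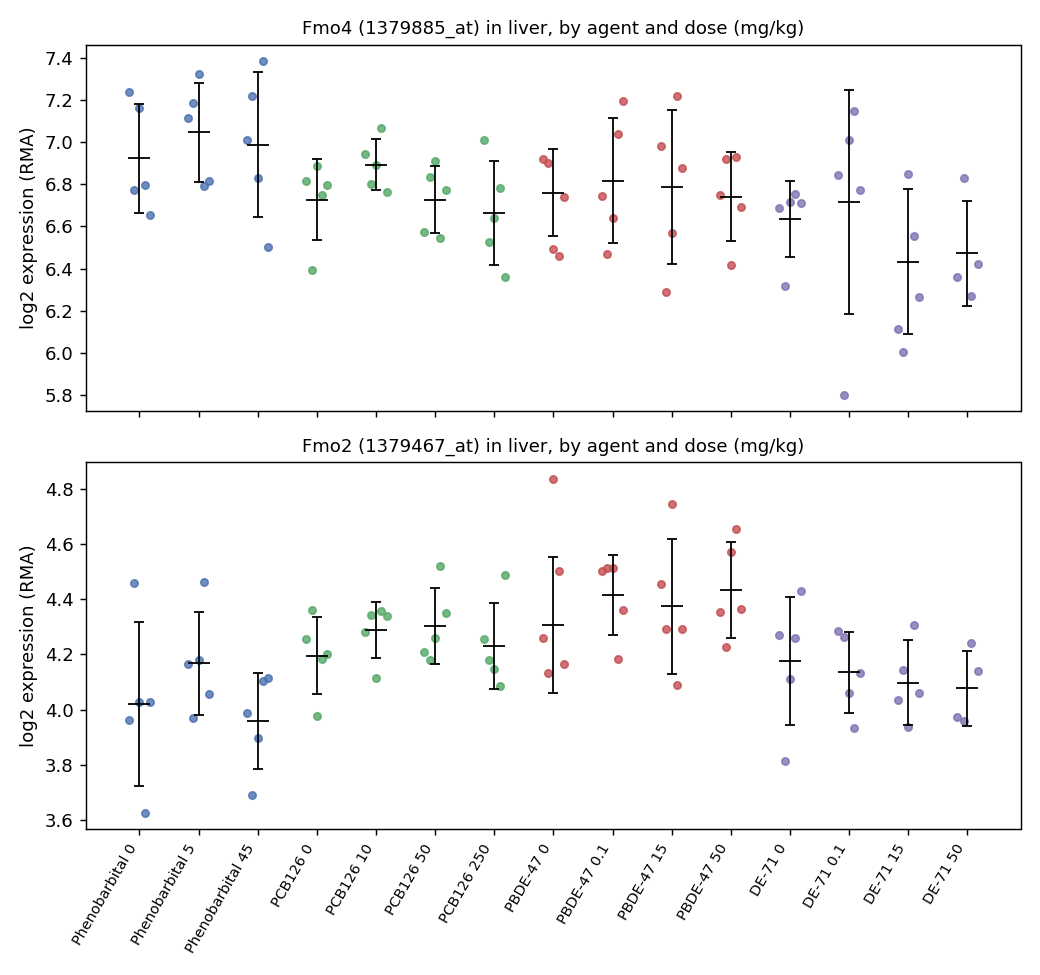
Log2 expression (RMA, vertical axis) of Fmo4 (1379885_at) and Fmo2 (1379467_at), the brightest probe set of each, in the 15 groups named by agent and dose in mg/kg. Points are arrays and black bars the mean ± SD of the group's samples. The Fmo4 group means stay between 6.43 and 7.05, and the points of the dose groups overlap those of their controls.

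The genes whose level went most like that of Fmo1 over the 72 samples, after the agent means were removed, were Cxcl13 (r = 0.81), the bile acid-CoA ligase Slc27a5 (0.80), the ethanol-inducible P450 Cyp2e1 (0.80), Pik3c2g (0.79) and Rgn (0.78). The most opposite were Cltb (-0.78), Sar1b (-0.78) and Malsu1 (-0.76). For Fmo5 they were Pcp4l1 (0.69), the UDP-glucose pyrophosphorylase Ugp2 (0.66), Anxa6 (0.61), Ang (0.60) and Cd63 (0.59), with Sri (-0.60) most opposite. For Fmo4 (1379885_at) the closest was Ggta1 (0.61) and for Fmo2 (1379467_at) Gtpbp1 (0.55), with Avl9 (-0.62) most opposite to Fmo2. The other probe sets of Fmo4 and Fmo2 did not follow these probe sets (r of -0.05 to 0.01). Their likeness values therefore describe 1 probe set each and not the gene. No gene stands on more than 1 of these lists of 5. The ranking took genes with a mean of at least 6 (7729 for Fmo1, Fmo4 and Fmo5), and the samples share treatments and array sets.

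Other genes that handle the same substrates or cofactors were counted from lists. Over all probe sets, 0.583% fell at phenobarbital 45, 0.792% at PBDE-47 50 and 3% at DE-71 50 mg/kg. In either direction, 0.441% were called at PBDE-47 15 and 0.557% at DE-71 15 mg/kg. Of 19 genes of sulfur amino acid, taurine and sulfide metabolism, none rose at any of the doses named here. At phenobarbital 45 mg/kg 4 fell, and the list's median was -0.31 against -0.01 for all probe sets. They were Gnmt, the glycine methyltransferase that uses S-adenosylmethionine (-1.01), Mat1a, which makes that methyl donor (-0.42), the sulfurtransferase Mpst (-0.43) and Cdo1, which opens the path from cysteine to hypotaurine (-0.48). At PBDE-47 50 mg/kg 4 fell, with a median of -0.25: the taurine transporter Slc6a6 (-2.05), Gnmt (-0.83), Cbs (-0.58) and Mat1a (-0.31), the last not without the arrays that join dose groups. At DE-71 50 mg/kg 3 fell, with a median of -0.30: Slc6a6 (-2.19), Mat1a (-0.37) and Mpst (-0.34). Without DE-71 50 replicate 2, Slc6a6 was the 1 that fell there. Csad, which makes hypotaurine, was at -0.79, -0.42 and -0.62 in these comparisons and was not called. At the middle doses Gnmt fell at PBDE-47 15 mg/kg (-0.80) and none at DE-71 15 mg/kg.

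Of 11 measured genes for microsomal electron transfer and NADPH supply, 3 rose at phenobarbital 45, 4 at PBDE-47 50, 2 at DE-71 15 and 3 at DE-71 50 mg/kg, and none fell. Over all probe sets, 1.39, 2.02, 0.557 and 5.68% were called in either direction in these comparisons. Por, the P450 reductase that flavin monooxygenases do not need, rose by 1.08, 0.95, 0.98 and 1.34 in these comparisons. Cytochrome b5 (Cyb5a) rose by 0.34, 0.35, 0.50 and 0.40. Without the arrays that join dose groups, Por was not called at DE-71 15 mg/kg. The malic enzyme Me1, a source of NADPH, rose by 1.37 at phenobarbital 45, by 1.86 at PBDE-47 50 and by 1.94 at DE-71 50 mg/kg. The list medians in these comparisons were 0.02, 0.24, 0.21 and 0.10. None of the 4 measured genes that supply the flavin cofactor was called in any dose comparison.

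Of 20 measured genes of N-oxygenation and amine handling, 1 to 3 rose in each comparison named here. Called in either direction were 1.39% of all probe sets at phenobarbital 45 mg/kg. The shares were 0.441 and 2.02% at PBDE-47 15 and 50 and 0.557 and 5.68% at DE-71 15 and 50 mg/kg. Inmt, an amine N-methyltransferase, rose by 2.15 at phenobarbital 45, by 1.57 and 1.59 at PBDE-47 15 and 50 and by 1.51 and 1.58 at DE-71 15 and 50 mg/kg, the 15 mg/kg call of DE-71 being lost without the arrays that join dose groups. Aldehyde oxidase Aox1 rose by 0.72 at PBDE-47 50 and by 0.64 at DE-71 50 mg/kg, where Nat8 also rose (1.02). Those that fell were the choline dehydrogenase Chdh at phenobarbital 45 (-0.47), and Mtarc2 (-0.37), which reduces N-hydroxylated compounds, and the arsenic methyltransferase As3mt (-0.44) at DE-71 50 mg/kg. The list median was -0.04, 0.06 and 0.09 at phenobarbital 45, PBDE-47 50 and DE-71 50 mg/kg. Without DE-71 50 replicate 2, Aox1 rose and Mtarc2 fell there, and no other member was called. Among 14 measured liver transcription factors and xenobiotic receptors, the glucocorticoid receptor Nr3c1 fell at DE-71 50 mg/kg (-0.44), a call lost without replicate 2, and no other was called in a dose comparison.

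Markers of other liver cells moved in the same livers, and their part in the flavin monooxygenase values was not tested. In bulk tissue, fewer cells of a type and less RNA per cell cannot be told apart. Over all probe sets, 1.39% were called at phenobarbital 45, 2.02% at PBDE-47 50 and 5.68% at DE-71 50 mg/kg. All 4 measured Kupffer cell and macrophage markers of 6 listed fell at PBDE-47 50 mg/kg (Clec4f by 0.80, Csf1r by 0.68, Cd163 by 0.62 and Cd68 by 0.60 on the log2 scale), where their mean level lay at 7.61 to 8.10 against 8.27 to 8.84 in the controls. With PBDE-47 50 replicate 3 and the other arrays that join doses left out, Csf1r alone of these was called. At DE-71 50 mg/kg the endothelial Kdr (-0.49) and the stellate Lrat (-0.58) fell, 1 of 5 and 1 of 7 measured markers, with mean endothelial levels of 7.55 to 8.16 against 8.08 to 8.45, and neither was called without replicate 2. Without the arrays that join dose groups, 3 of the 5 endothelial markers (Stab2, Kdr and Lyve1) and 2 of the 7 stellate markers (Lrat and Dcn) fell there, and Des rose. Epcam, 1 of 4 measured cholangiocyte markers, rose by 0.74 at phenobarbital 45, by 1.35 at PBDE-47 50 and by 1.28 at DE-71 50 mg/kg. The mean hepatocyte marker level was 14.03 to 14.10 at DE-71 50 mg/kg against 14.09 to 14.13 in its controls. None of the measured lymphocyte, erythroid, pancreas, kidney or lung markers was called in a dose comparison.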

How the data were processed

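Liver RNA was hybridised to 74 rat expression arrays. The authors' deposited table holds RMA values on the log2 scale, 1 for each probe set and array, per the submitters' processing notes, with no version stated. The arrays' sorted values had a mean SD of 0.025 to 0.047 inside an agent and of 0.070 over all arrays, so each dose was compared with 0 mg/kg of its own agent. The 57 control probe sets were left out, and genes come from the array's 2016 annotation. Averaging the near-identical arrays of 1 group left 72 samples.

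For 31042 probe sets, limma 3.58.1 (R 4.3.3) fitted 15 group means in 1 model with moderated variances and 57 residual degrees of freedom. Benjamini-Hochberg adjustment ran over all probe sets of a comparison, and a probe set was called, and said to rise or fall, at an adjusted p below 0.05. As no label says that the pups come from separate litters, a p reflects only the spread among these samples. Arrays have no counting depth, so their number limits the precision. The procedure was tested on simulated independent samples with 1 spread per probe set for all groups. That setting covers neither unequal spreads between groups nor near-identical arrays.

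The members, gene lists and tests were chosen with earlier results of these data known. All member probe sets are named. A listed gene was represented by its brightest single-gene probe set, and up to 3 called members per list and comparison are named by p, with others named beside them chosen after their values were seen. An adjustment over the members alone, foreseen for the comparison of agents, was not used. Alternatives were other sample sets, normalization, variance settings, a filter at a mean of 5, a replicate block and leaving out each sample.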

Additional observations from a re-analysis of the deposited data

Results flagged for a closer look

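In 8 of 105 checks of a group on a probe set, 1 array stood further from the rest of its group than Dixon's 95% limit, where chance gives about 1 in 20. Fmo1 read 10.97 in phenobarbital 45 mg/kg replicate 4, above the 10.09 to 10.19 of the others. It read 10.17 in PCB126 250 mg/kg replicate 5, below the 10.83 to 11.02 of the others. Fmo5 read 9.80 in DE-71 0.1 mg/kg replicate 2, below the 10.36 to 10.56 of the others, and Fmo4 (1379885_at) read 5.80 in the same array, below 6.77 to 7.15. In DE-71 0 mg/kg replicate 2, Fmo4 read 6.32 on 1379885_at, below 6.69 to 6.75, and 4.72 on 1395026_at, above 4.15 to 4.31. Fmo4 (1379885_at) read 6.39 in PCB126 0 mg/kg replicate 2, below 6.75 to 6.88. Fmo2 (1377635_at) read 3.99 in phenobarbital 0 mg/kg replicate 3, above 3.37 to 3.54.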

How the results depend on the processing

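The recounts of gene lists and of Fmo1 minus Fmo5 without samples were chosen after the data were seen. Direction was checked only for results called in the main fit or in the alternative run, and none of these reversed. The fall of Fmo5 at PBDE-47 50 mg/kg kept its call under all alternative runs. The fall of Fmo1 at DE-71 50 mg/kg kept its call in all 9 fits without 1 sample (-1.87 to -1.17). In fits on the arrays of the same agent it lost the call with its value of -1.54 unchanged (adjusted p = 0.08473 in limma), and so it did on the groups compared alone (0.1235), so that 0 of the 7 probe sets were called there. In these fits Fmo5 at phenobarbital 45 against 0 mg/kg (-0.67) had 0.1196 and 0.09959, and 45 against 5 mg/kg (-0.71) had 0.2122 and 0.2167. Fmo1 gained the call there, at 45 against 0 mg/kg (-0.79, adjusted p = 0.005241 and 0.02763 in limma). It also did at 45 against 5 mg/kg (-0.78, 0.01667 and 0.03746). Without 1 sample the Fmo5 differences ran from -0.76 to -0.52 and from -0.84 to -0.56, with 0 to 1 probe sets called in each. On the groups compared alone, 1 probe set was called at PBDE-47 15 mg/kg and 2 at 50 mg/kg. Between DE-71 50 and 15 mg/kg, 1 was called in place of 0 without replicates 1 and 2 at 15, without replicate 4 at 50, or without the arrays that join dose groups.

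The samples were not treated as paired by replicate number. Deviations of same-numbered treated and 0 mg/kg arrays correlated at -0.36 to 0.46, and 17 of 54 pairs were above 0.1. In none of the 11 dose comparisons were all pairs above 0.1, which does not exclude a pairing of some samples. With the replicate number as a block and all 74 arrays, Fmo1 at DE-71 50 mg/kg was at -1.60, and no call on a member changed. Over all probe sets, taking the 74 arrays as separate samples gave 1106 calls in place of 627 at PBDE-47 50, 349 in place of 137 at PBDE-47 15 and 347 in place of 173 at DE-71 15 mg/kg, and with the block added to it 1106, 379 and 403. Calls at DE-71 50 mg/kg (1764) ranged from 132, on the groups compared alone, to 2465 without replicate 4. At phenobarbital 45 mg/kg (431) they ranged from 264 to 772, at 45 against 5 mg/kg (111) from 61 to 198, at DE-71 50 against 15 mg/kg (24) from 0 to 484, and for DE-71 minus PBDE-47 at 50 mg/kg (12) from 1 to 81. The lowest counts without 1 sample or on fewer arrays were 402 at PBDE-47 50, 55 at PBDE-47 15 and 46 at DE-71 15 mg/kg, and the small counts at phenobarbital 5 (20), PCB126 250 (10), PCB126 250 against 50 (8) and DE-71 minus PBDE-47 at 15 mg/kg (4) had lows of 6, 5, 3 and 0. The causes were not tested. Fmo2 and 1 Fmo4 probe set were dim, which limits what these arrays can show of them.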
